A study of Saccharomyces cerevisiae with 10 samples.

Results

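The genes LSM1 to LSM8 of the yeast Saccharomyces cerevisiae encode the subunits of the Lsm rings, and they were followed here in a strain lacking EDC3 and in its wild type. Probe sets were taken where the platform annotation named one of the 8 genes, which gave 8 of the 5656 genes with a probe set of their own and 10 of the 9335 probe sets on the array. LSM2 had 3 probe sets and each other gene had 1. The strain labelled edc3D carries a deletion of EDC3 and is named CFY25 in the sample labels but SYY14 in the design text. Its wild type is HFY114, labelled WT here, and the design text calls the strains isogenic. Each strain was measured on 5 Affymetrix Yeast Genome S98 arrays, which the labels number as biological replicates 1 to 5. Same-numbered arrays of the strains are called experiments 1 to 5. Both strains were cultured untreated at 30 °C in YEPD, a rich medium. The sources used here give neither the marker that replaced EDC3 nor the growth phase or the remaining genotype.

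Lsm proteins are small RNA-binding proteins that close into rings. The products of LSM2 to LSM7 are shared by both rings. With Lsm1 they form the cytoplasmic ring, which binds the 3′ end of deadenylated mRNA together with Pat1 and promotes removal of the 5′ cap. With Lsm8 they form the nuclear ring, which binds the 3′ end of the U6 small nuclear RNA and is needed for pre-mRNA splicing. LSM1, LSM6 and LSM7 can be deleted in yeast, whereas LSM8 is essential. Edc3 itself carries an Lsm domain but belongs to neither ring; it binds the decapping enzyme and stimulates decapping. The comparison asks whether the RNA level of the ring subunits differs when Edc3 is missing, and whether the subunit of the cytoplasmic ring differs from that of the nuclear one.

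The values are MAS5 signals, linear intensities that the authors scaled to a common level on every array. Array medians ran from 58.2 to 66.8. EDC3 (YEL015W) read 1.38 ± 0.85 in edc3D and 469 ± 8.93 in WT (SD, n = 5 each), so every array matched its strain label. On the first principal component, experiments 4 and 5 separated from experiments 1 to 3 in both strains, and the 2 arrays of a strain from these experiments were more alike than any other pair of that strain. Their log2 signals differed with a median absolute deviation of 0.082 in edc3D and 0.091 in WT, where the remaining pairs within a strain gave 0.209 to 0.481. They were counted as labelled, and results that depend on them are also given without them or with both averaged. The design text names 5 independent experiments of the 2 strains, but the labels do not say how the replicates were raised. A p-value is therefore read as measuring only the spread between these arrays.

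Each of the 8 genes had a probe set far above the level of the 4 mouse control probe sets, for which yeast has no target and which read 0.3 to 4.8. The signal of a probe set depends on its own oligonucleotides as well as on the amount of RNA, so the signals below do not rank the subunits by amount and no order of levels is given. LSM1 (YJL124C) read between 132.9 and 216.7 over the 10 arrays, and LSM8 (YJR022W) between 58.5 and 133.5. Among the shared subunits the gene's brightest probe set read 155 to 214.3 for LSM2 (YBL026W), 257.9 to 341.7 for LSM3 (YLR438C-A), and 143.3 to 205.8 for LSM4 (YER112W). LSM5 (YER146W) read 168.9 to 245.4, LSM6 (YDR378C) 146.9 to 273.4, and LSM7 (YNL147W) 89.8 to 148.6. No LSM gene was near the control level, so a difference between the strains could be measured for every one of them.

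**Figure D1:**
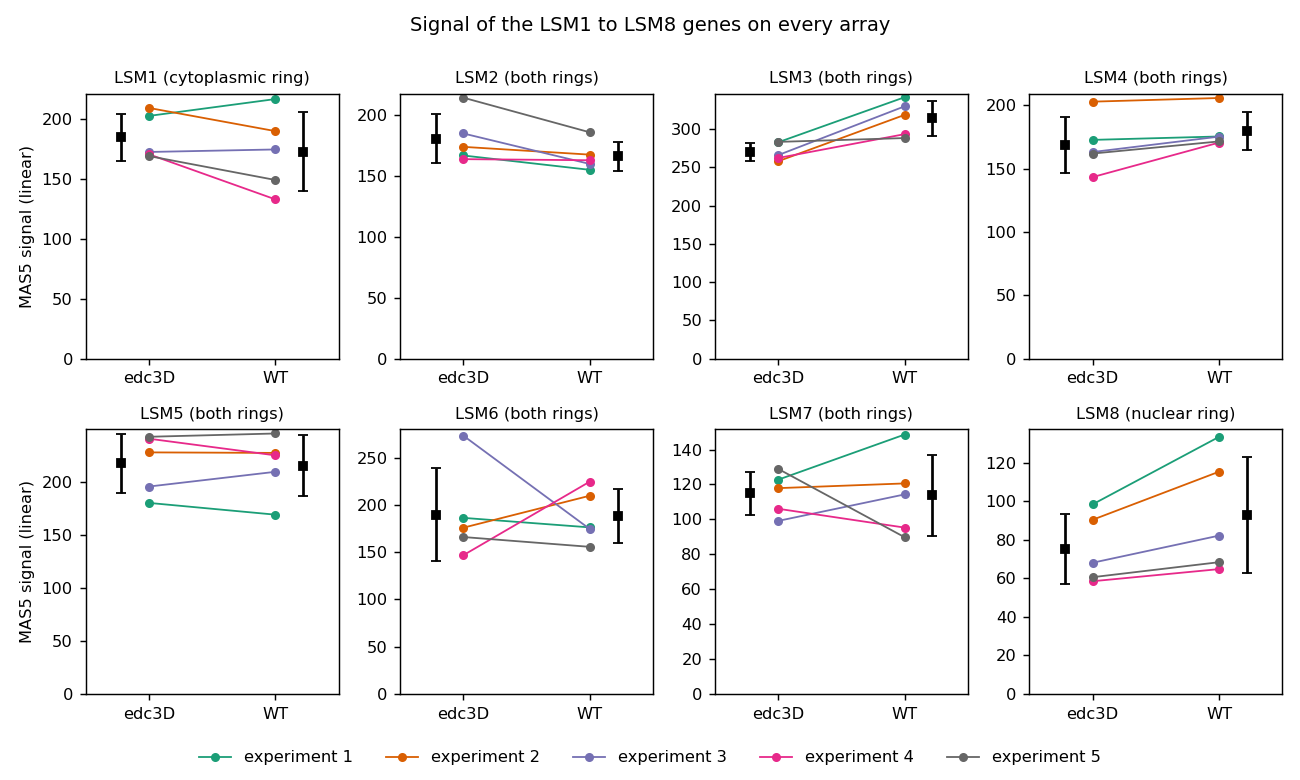
Linear MAS5 signal of the brightest probe set of each LSM gene (vertical axes, each starting at 0 and with its own scale) in edc3D and WT. Coloured points are single arrays joined by experiment, and black squares with bars are means ± SD (n = 5). For LSM3 all edc3D arrays lie below all WT arrays, and for LSM8 the strains overlap while every line runs lower in edc3D.

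None of the ring subunits passed the test between the strains. Strains were compared with limma on log2 signals over 6492 probe sets, with Benjamini-Hochberg adjustment over all of them and a threshold of 0.05. Of the 9 LSM probe sets bright enough to be tested, 0 were called, against a background of 0.077% (5 of 6492). At an unadjusted p under 0.05 limma gave 1 of the 9, LSM3, against 4.82% of all tested probe sets. With the experiment as a block the background moved to 0.447% (29 of 6492 called) and the LSM count was again 0, with LSM3 and LSM8 at an unadjusted p under 0.05, against a background of 23.1%. The median log2 difference of the 8 genes was 0.00, with 4 higher and 4 lower, and that of all tested probe sets was also 0.00, with 51.1% lower.

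LSM1, the subunit that marks the cytoplasmic ring, had signals of 202.6, 209.3, 172.5, 170.6 and 169.1 in edc3D, against 216.7, 189.9, 174.6, 132.9 and 149.1 in WT (experiments 1 to 5 in both). The strains overlapped widely, and the lowest values of WT were those of experiments 4 and 5. The means were 185 ± 19.5 in edc3D and 173 ± 33.1 in WT (SD, n = 5 each). The log2 difference was 0.11 ± 0.14 (SE, limma adjusted p = 0.999). The 95% interval of the ratio of edc3D to WT ran from 0.880 to 1.33 in this fit, which has no block. Differences inside that range could not be told from none there. With the experiment as a block the 95% interval of the log2 difference was narrower, from -0.055 to 0.28. The log2 difference was 0.025 without WT array 4, 0.20 without WT array 1 and 0.0086 in experiments 1 to 3 alone. LSM1 was higher in edc3D in experiments 2, 4 and 5 and lower in experiments 1 and 3. In experiments 4 and 5 alone, with the block, LSM1 was called at 0.27 (limma adjusted p = 0.0146), in a fit that called 2277 of the 6492 probe sets on arrays that are nearly alike.

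LSM8, the subunit that marks the nuclear ring, had signals of 98.4, 90.4, 68.1, 58.5 and 60.6 in edc3D, against 133.5, 115.4, 82.2, 64.8 and 68.4 in WT. It was lower in edc3D in all 5 experiments, by 0.15 to 0.44 on the log2 scale, yet the strains overlapped because both varied by more than that between experiments. The means were 75.2 ± 18.1 in edc3D and 92.9 ± 30.2 in WT (SD, n = 5 each). The log2 difference was -0.28 ± 0.23 (SE), with a limma adjusted p of 0.999 and an exact permutation p of 0.31. It was -0.13 without WT array 1 and -0.39 without WT array 4. With the experiment as a block the error was smaller, at 0.07, and the call still missed the threshold (limma adjusted p = 0.0844). With experiments 4 and 5 averaged, the blocked fit gave -0.31 (limma adjusted p = 0.227). In experiments 1 to 3 alone it gave -0.35 (limma adjusted p = 0.426). A probe set lower in all 5 experiments is common on these arrays, at 10.2% of those tested. In RNA from a whole culture, fewer cells with a transcript and less of it per cell cannot be told apart.

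LSM3, a shared subunit, was the member whose strains did not overlap. Its signals were 282.7, 257.9, 265.9, 262.2 and 283.3 in edc3D, against 341.7, 318.6, 329.8, 293.4 and 288.3 in WT. The highest edc3D array, at 283.3, was below the lowest WT array, at 288.3, and both belong to experiment 5, where the gap was smallest. The means were 270 ± 11.8 in edc3D and 314 ± 23.03 in WT (SD, n = 5 each). In log2 units the strains differed by -0.22 ± 0.08 (SE) or 0.861 times the WT level. An exact two-sided permutation test gave p = 0.00794, the smallest that 5 against 5 arrays allow. After adjustment over all probe sets LSM3 did not pass in the fit without a block (limma adjusted p = 0.943), where it ranked 146 of 6492 by p. With the experiment as a block the error was smaller, at 0.06, and LSM3 came nearer to the threshold but still missed it (limma adjusted p = 0.0979). Arrays of edc3D lay wholly below those of WT for 41 probe sets, or 0.632% of those tested. The log2 difference was -0.30 in experiments 1 to 3 alone and -0.09 in experiments 4 and 5 alone, and it missed the threshold in both. The limma adjusted p in experiments 1 to 3 was 0.999 without the block and 0.423 with it. In experiments 4 and 5 the limma adjusted p was 0.188 with the block.

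LSM4, whose asparagine-rich tail takes part in the assembly of mRNA decay bodies, was also lower in edc3D in all 5 experiments, but by little. Its signals were 172.7, 202.9, 163.1, 143.3 and 161.9 in edc3D, against 175.4, 205.8, 175.3, 170.6 and 171.5 in WT. The strains overlapped, and experiment 2 was the highest in both. The log2 difference was -0.10 ± 0.11 (SE, limma adjusted p = 0.999), with 0.02 to 0.25 lower in single experiments. It was -0.04 without edc3D array 4 and -0.17 without edc3D array 2.

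LSM2, an intron-containing gene, had its brightest probe set at 166.8, 173.9, 184.9, 163.8 and 214.3 in edc3D, against 155, 167.5, 159.8, 162.9 and 185.8 in WT. It was higher in edc3D in all 5 experiments, by 0.01 to 0.21, with a log2 difference of 0.12 ± 0.10 (SE, limma adjusted p = 0.999). The strains overlapped, and without edc3D array 5 the difference was 0.054. Its other probe sets were dim. One, with the suffix _i_at, read 16.8 to 21.9 in edc3D and 15.1 to 20.4 in WT, with a log2 difference of 0.15 ± 0.14 (SE) and experiment 3 in the opposite direction. The third, with the suffix _f_at, read 2.7 to 12.1 in edc3D and 5.9 to 9 in WT, close to the mouse controls. It was among the dim probe sets left out, so it has values but no test. Together with LSM3, LSM4 and LSM8, LSM2 made 4 of 9 tested LSM probe sets with the same sign in all 5 experiments, against 20.4% of all tested probe sets.

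LSM5, LSM6 and LSM7 had no consistent direction over the experiments. LSM5 averaged 217 ± 28.02 in edc3D and 215 ± 28.8 in WT (SD, n = 5 each), 0.01 ± 0.12 apart on the log2 scale (SE). The experiments differed by -0.10 to 0.10. LSM6 averaged 190 ± 49.0 in edc3D and 188 ± 28.3 in WT (SD, n = 5 each). The log2 difference was -0.01 ± 0.16 (SE). Here the strains of one experiment departed from each other: LSM6 read 273.4 in edc3D and 174.4 in WT in experiment 3, but 146.9 in edc3D and 224.9 in WT in experiment 4. LSM7, which also carries an intron, averaged 115 ± 12.2 in edc3D and 114 ± 23.3 in WT (SD, n = 5 each). In log2 units the strains differed by 0.03 ± 0.14 (SE). Its differences ran from -0.28 in experiment 1 to 0.52 in experiment 5, and the limma adjusted p was 0.999 for each of these genes. In experiments 4 and 5 alone, with the block, LSM7 was called at 0.34 (limma adjusted p = 0.0282), whereas its value in experiments 1 to 3 alone was -0.17.

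**Figure D2:**
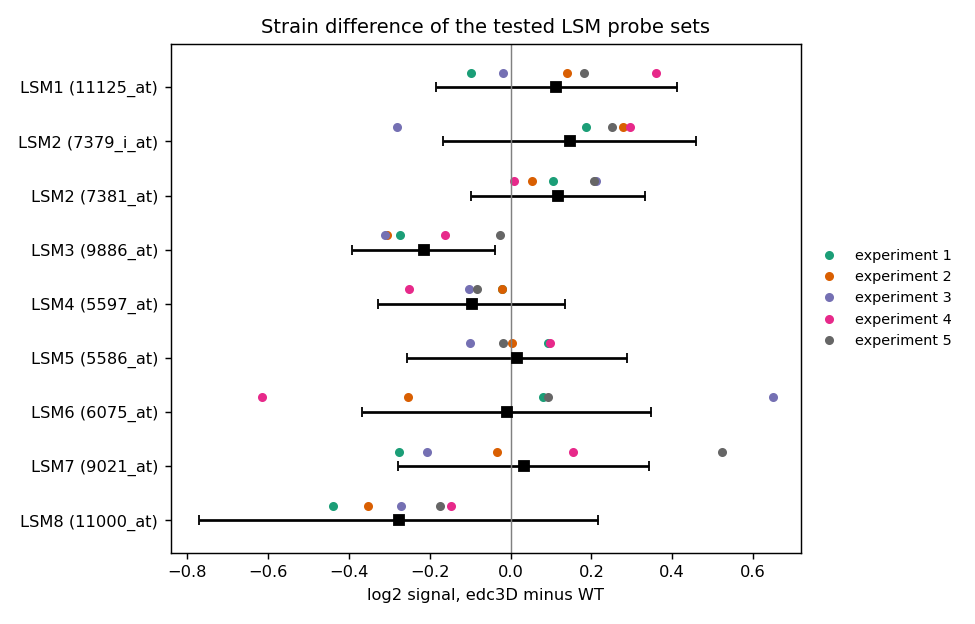
Log2 signal of edc3D minus WT (horizontal axis) for the 9 tested LSM probe sets. Black squares are limma estimates with 95% intervals over 5 against 5 arrays, and coloured points above them are the differences within single experiments. The intervals are those of the fit without a block and are not adjusted. For LSM3 the interval lies below 0. For LSM8 every experiment lies below 0 while the interval, from -0.77 to 0.22, does not. With the experiment as a block the LSM8 interval, not drawn, ran from -0.44 to -0.12 before adjustment, and LSM8 was not called.

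The cytoplasmic and nuclear subunits were compared directly as the log2 ratio of the LSM1 to the LSM8 signal within each array, which does not depend on the scaling of the arrays. The ratio was 1.04, 1.21, 1.34, 1.54 and 1.48 in edc3D, against 0.70, 0.72, 1.09, 1.04 and 1.12 in WT. It was higher in edc3D in all 5 experiments, by 0.25 to 0.51, while experiment 1 of edc3D lay below experiments 3 and 5 of WT, so the strains overlapped. LSM8 alone was already lower in all 5, and 20.4% of all tested probe sets had the same sign in all 5. The share for ratios of other pairs of probe sets was not computed. The mean was 1.32 ± 0.20 in edc3D and 0.93 ± 0.21 in WT (SD, n = 5 each), a difference of 0.39, or 1.31 times in the ratio. The exact two-sided permutation test gave p = 0.0238, unadjusted, where 0.00794 is the smallest possible. With experiments 4 and 5 averaged the difference was 0.38 and the exact permutation p was 0.0857. Without edc3D array 4 it was 0.34 with an exact permutation p of 0.0556, and in experiments 1 to 3 alone 0.36 with an exact permutation p of 0.2. Paired within experiments, the exact sign-flip test gave p = 0.0625, the smallest it can give with 5 pairs.

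Set against the shared subunits, the larger part of this difference lay with LSM8 in experiments 1, 2, 3 and 5 and with LSM1 in experiment 4. Relative to the mean log2 signal of LSM2 to LSM7 on the same array, LSM8 was lower in edc3D in all 5 experiments, with a mean difference of -0.25 and a range of -0.39 to -0.02. LSM1 relative to the same mean differed by 0.14, with a range of -0.05 to 0.49 and 3 of 5 experiments higher. In experiments 1 to 3 the mean difference was -0.32 for LSM8 and 0.05 for LSM1, and in experiments 4 and 5 it was -0.16 for LSM8 and 0.28 for LSM1. Experiment 4 alone gave -0.02 for LSM8 and 0.49 for LSM1, and experiment 5 alone -0.29 for LSM8 and 0.07 for LSM1. Experiment 2 was nearly even, at -0.26 for LSM8 and 0.23 for LSM1. The shared mean of experiment 4 includes LSM6, which differed by -0.61 there. Not set against that mean, LSM8 differed by -0.15 and LSM1 by 0.36 in experiment 4. The shared mean of experiment 5 includes LSM7, which differed by 0.52 there, and LSM2, which differed by 0.21. Not set against it, LSM8 differed by -0.17 and LSM1 by 0.18 in experiment 5, so the parts were nearly even. These are descriptions of values whose members were known, and no test was run on them.

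**Figure D3:**
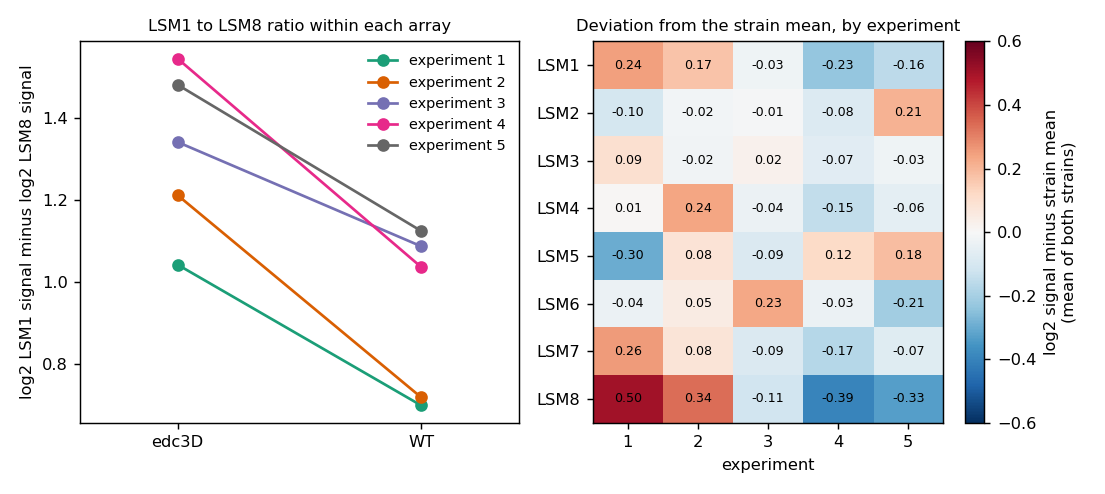
Left, log2 LSM1 minus log2 LSM8 signal on each array (vertical axis, not starting at 0) in edc3D and WT, joined by experiment; all 5 lines are higher in edc3D. Right, log2 signal of each LSM gene minus its strain mean, averaged over both strains, for experiments 1 to 5; LSM8 runs from 0.50 in experiment 1 to -0.39 in experiment 4, the widest range of the 8 genes.

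Several subunits differed more between experiments than between strains. LSM8 was at 58.5 to 68.4 in experiments 4 and 5 and at 68.1 to 133.5 in experiments 1 to 3, over both strains. Its mean log2 signal differed by -0.60 between these sets of experiments, against -0.28 between the strains. LSM1 was at 132.9 to 170.6 in experiments 4 and 5 and at 172.5 to 216.7 in experiments 1 to 3, with no overlap. Of all tested probe sets, 16.5% were lower in experiments 4 and 5 without overlap and 9.5% higher, so LSM1 is 1 of many. LSM5 ran the other way, with a difference of 0.25, and LSM3 varied little, at -0.08. The instrument records put experiments 2 and 3 on a shared chip lot and experiment 1 on another, with the lot blank for experiment 4 and no record for experiment 5. In a fit with the lot as a block, experiments 4 and 5, whose lot is not known, were each entered as a lot of their own. That block is therefore the experiment with experiments 2 and 3 merged. In this fit LSM8 differed between the strains by -0.28 (limma adjusted p = 0.374) and LSM3 by -0.22 (limma adjusted p = 0.273). Within the lot of experiments 2 and 3 the log2 differences were -0.31 for LSM8 and -0.31 for LSM3, neither called. The part of the lot and scan in these values was not tested further.

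Over the 10 arrays, after subtracting the strain means, LSM1 and LSM8 varied together, with a Pearson correlation of 0.949, and of 0.929 over the 6 arrays of experiments 1 to 3. LSM7 followed LSM3 at 0.871 and LSM1 at 0.809. Over experiments 1 to 3 these were 0.534 and 0.962. LSM5 ran against LSM8 at -0.684 (-0.345 over experiments 1 to 3) and against LSM3 at -0.632 (-0.918), and over the 10 arrays LSM6 stayed between -0.341 and 0.228 with every other member. Over experiments 1 to 3 LSM6 correlated with LSM2 at 0.846, with LSM1 at -0.653 and with LSM7 at -0.640, so its low values over the 10 arrays depend on experiments 4 and 5. Arrays of one experiment share a number and possibly a culture day, scan and chip lot, so the correlations are descriptions. Among 5404 tested probe sets with 1 gene outside the LSM genes, the patterns most like that of LSM8 over the same 10 arrays were those of SFH5 (correlation 0.995), OAF1 (0.982) and ECM29 (0.981). SFH5 encodes a phosphatidylinositol transfer protein, OAF1 a transcription factor of fatty acid use, and ECM29 a proteasome-binding protein. Nearest to LSM1 were ARC18, a subunit of the Arp2/3 complex, SRS2, a DNA helicase, and ACF2, each with a correlation of 0.978. Nearest to the mean of LSM2 to LSM7 were SEC1, an exocytosis factor, at 0.828, UBP16 at 0.816 and PFA5 at 0.806. Over the 6 arrays of experiments 1 to 3 the correlations were 0.967 to 0.993 for the genes nearest to LSM8 and 0.952 to 0.987 for those nearest to LSM1. For SEC1 it was 0.986 there, for UBP16 0.849 and for PFA5 0.895.

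The partners of the rings were read from lists of genes. Of 11 decapping and decay genes besides EDC3, 10 were tested and 0 passed limma's test in either direction, with 0 unblocked and 1 blocked (DCP1) reaching an unadjusted p under 0.05. Over all tested probe sets 0.077% were called unblocked and 0.447% blocked, and 4.82% unblocked and 23.1% blocked had such a p, so the share in the list was not above the background. Their median log2 difference was 0.10, with 8 higher and 2 lower in edc3D, beside 0.00 over all tested probe sets, of which 51.1% were lower. PAT1, the partner of the cytoplasmic ring, averaged 201 ± 34.9 in edc3D and 132 ± 87.4 in WT (SD, n = 5 each). On the log2 scale the strains differed by 0.95 ± 0.48 (SE, limma adjusted p = 0.999). That difference rests on experiments 4 and 5, at 2.67 and 2.13, against -0.17 to 0.14 in the others. SCD6, an Lsm-domain protein that represses translation, had the same split, at 0.96 and 1.05 in experiments 4 and 5 against -0.30 to 0.07 in the others. DCP2, the catalytic subunit of the decapping enzyme, averaged 37.2 ± 5.23 in edc3D and 42.6 ± 2.57 in WT (SD, n = 5 each). On the log2 scale the strains differed by -0.20 ± 0.12 (SE, limma adjusted p = 0.999). DCP1, its partner, differed by 0.17 ± 0.12 (SE). It was higher in edc3D in all 5 experiments, as were XRN1 and DCS1 of the same list. Of all tested probe sets, 20.4% had the same sign in all 5. LSM1 was higher in edc3D in experiments 2, 4 and 5, by 0.14, 0.36 and 0.18, and lower in experiments 1 and 3. The fit on experiments 4 and 5 alone, with the block, called 2277 of the 6492 tested probe sets. A link between these genes was not tested.

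Partners of the nuclear ring did not pass either. Of 18 genes for the U6 RNA and its particles, 17 were tested and 0 were called by limma, with 0 reaching an unadjusted p under 0.05 in either fit, against 4.82% unblocked and 23.1% blocked of all tested probe sets. The called share over all of them was 0.077% unblocked and 0.447% blocked. Their median log2 difference was 0.01, with 9 higher and 8 lower, and the range was -0.20 to 0.14. The probe set of SNR6, the U6 RNA that the nuclear ring binds, read 20.5 ± 3.07 in edc3D and 23.7 ± 4.27 in WT (SD, n = 5 each). On the log2 scale the strains differed by -0.20 ± 0.17 (SE, limma adjusted p = 0.999). The sources used here do not say whether the labelling reaches the U6 RNA, which has no poly(A) tail. PRP24, which anneals U6 with U4 RNA, differed by -0.12 ± 0.13 (SE), and BRR2, the helicase that unwinds them, by 0.11 ± 0.11 (SE).

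The related Sm ring, which binds the other spliceosomal RNAs, had 7 tested genes, of which 0 were called by limma. An unadjusted p under 0.05 was reached by 0 of them unblocked and by 2 blocked, near the 23.1% of all tested probe sets in the blocked fit (4.82% unblocked), of which 0.077% were called unblocked and 0.447% blocked. The median log2 difference was -0.06, with 3 higher and 4 lower. SMD3 averaged 186 ± 15.3 in edc3D and 210 ± 11.95 in WT (SD, n = 5 each). On the log2 scale the strains differed by -0.17 ± 0.09 (SE), and was lower in all 5 experiments. SME1 was higher in all 5, with 72.0 ± 12.95 in edc3D and 59.3 ± 12.2 in WT (SD, n = 5 each) and a log2 difference of 0.29 ± 0.18 (SE). SMD2 differed by -0.17 ± 0.12 (SE), and the limma adjusted p was 0.999 for all these genes. Among Lsm-domain genes outside the rings besides EDC3, 3 were tested and 0 were called by limma, with 0 unblocked and 1 blocked (LSM12) reaching an unadjusted p under 0.05, beside 23.1% of all tested probe sets blocked. These 3 include SCD6, which is also counted among the decapping genes. LSM12 was higher in all 5 experiments, with a log2 difference of 0.15 ± 0.13 (SE), where 20.4% of all tested probe sets had the same sign in all 5, and MAK31 differed by 0.07 ± 0.11 (SE).

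**Figure D4:**
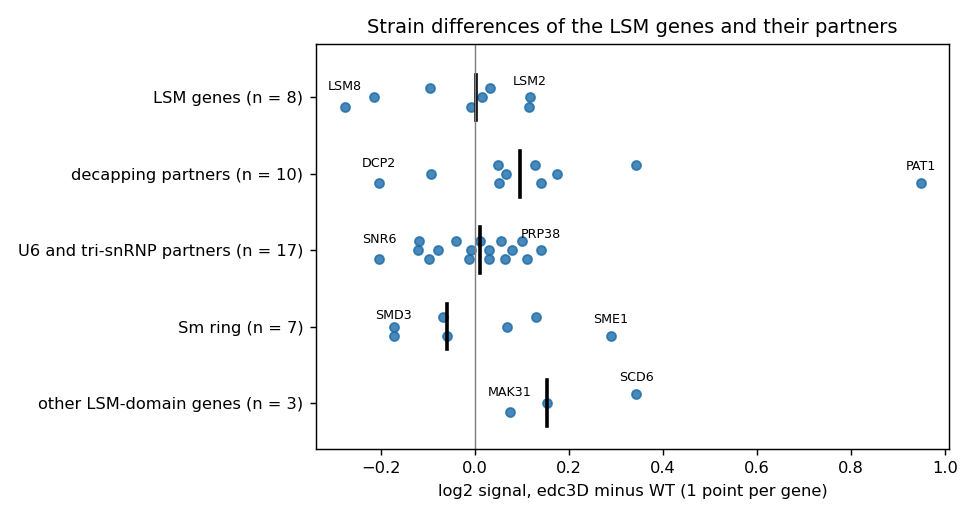
Log2 signal of edc3D minus WT (horizontal axis) for the 8 LSM genes and for the tested genes of the partner lists, 1 point per gene in each list and without EDC3. SCD6 is drawn both with the decapping partners and with the other LSM-domain genes. Black bars are medians, and the lowest and highest gene of each list are named; PAT1 stands at 0.95 and the other genes between -0.28 and 0.34.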

How the data were processed

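Per the labels' protocols, 6 µg of total RNA per sample were turned into biotinylated cRNA for 1 array. The deposited values are intensities, 1 MAS5 signal per probe set and array per the submitters' processing notes, with no version given. They are linear and were scaled by the authors to a common level (2%-trimmed means differed by 0.0186% at most); the value table holds no detection calls. The chip lot was read from instrument records deposited with 8 of the samples; those other entries hold settings and no expression values.

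Genes were named by the platform annotation, with symbols updated through RefSeq's R64 gene table. All 10 probe sets matched 1 gene. Of 9335 probe sets, 60 controls were left out and the dimmest 30% by mean log2 signal (mean signal under 16.8) were not tested. Signals of 0 (156 of them) were raised to 0.1 before log2. Limma 3.58.1 in R 4.3.3 (lmFit, eBayes with trend) compared 5 with 5 arrays without a block. After subtraction of strain means, the arrays sharing a number correlated at 0.475 to 0.713 in the 5 experiments, and the labels give them a shared letter, so they were taken as pairs and the blocked fit was run as an alternative. No 2 arrays were identical. The brightest of several probe sets stood for its gene. Errors of log2 differences are limma's SE in the fit without a block, unless the block is named. The scripts were tested on simulated data.

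The members and lists were chosen with earlier results of these data known. The rule for named genes took all LSM probe sets, EDC3, up to 3 genes of smallest p per partner list and the 3 genes nearest in pattern; SNR6, PRP24 and BRR2, and SMD3, SME1 and SMD2, are of the second kind. The number of arrays limits the precision.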

Additional observations from a re-analysis of the deposited data

Results flagged for a closer look

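Of 20 sets of 5 arrays (10 probe sets in 2 strains), 1 held an array far from the others, about what chance gives, since about 1 in 20 sets is marked by chance. LSM4 read 205.8 on WT array 2, against 170.6 to 175.4 on the other WT arrays. The gap was 0.852 of the whole range on the log2 scale, above the limit of 0.71. The edc3D array of the same experiment was also the highest of its strain, at 202.9.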

How the results depend on the processing

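No LSM probe set was called in 24 of 25 alternative settings. LSM3 stayed lower in edc3D in each of the 25, with log2 differences of -0.31 to -0.09 and limma adjusted p of at least 0.0979. LSM8 did too, at -0.39 to -0.13 and at least 0.0844. LSM4 was lower and LSM1 and the brightest LSM2 probe set were higher in each of the 25. The exception was experiments 4 and 5 alone with the replicate block, which called 2 LSM probe sets, LSM1 (0.27) and LSM7 (0.34), with 10 of 36 partner genes and 2277 probe sets in all. Against 5 in the main comparison, the number called was 29 with the replicate block, 3 with experiments 4 and 5 averaged (8 with the block), 2 in experiments 1 to 3 (3 with the block), 10 with the chip lot as a block, 106 with array weights, 3 without the intensity trend, and 0 in experiments 2 and 3 alone, a setting chosen after seeing the data. It was 3 to 4 with an array left out.

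The subunits near 0 turned sign. With experiments 4 and 5 averaged, with and without the block, LSM6 stood at 0.054 and LSM7 at -0.044. In experiments 1 to 3, with and without the block, LSM5 was at -0.0014, LSM6 at 0.16 and LSM7 at -0.17. In experiments 2 and 3 alone LSM5 was at -0.048, LSM6 at 0.20, LSM7 at -0.12 and the dim tested LSM2 probe set at -0.00098. With median centring LSM5 was at -0.0081. With an array left out they ran from -0.069 to 0.080 for LSM5, -0.15 to 0.075 for LSM6 and -0.047 to 0.13 for LSM7. The cause was not tested.

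The difference in the LSM1 to LSM8 ratio kept its direction in every setting run. It was 0.39 by pairs with the replicate block, 0.38 with experiments 4 and 5 averaged, 0.36 in experiments 1 to 3 with or without the block and 0.43 in experiments 4 and 5. It missed 0.05 in each of these. With experiments 4 and 5 averaged, 4 against 4 arrays allow an exact permutation p down to 0.0286; the paired tests and experiments 1 to 3 could not reach 0.05 at their size. With an array left out it was 0.33 to 0.46, with an exact permutation p of 0.00794 to 0.0556. The replicate block changed no LSM call over all experiments. With 5 arrays a strain, the difference of LSM3 was not called with or without the block.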

Other observations

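The chromosomal neighbours of the LSM genes in the R64 gene order were looked up after the LSM values were seen. Of 16 neighbours 14 were tested and 0 were called by limma, with 8 lower and 6 higher in edc3D. With the experiment as a block 5 had an unadjusted p under 0.05, against 23.1% of all tested probe sets. These 5 were CAR2 and MRPL4 beside LSM3, at log2 differences of -0.24 ± 0.36 and -0.16 ± 0.27 (SE), REC107 beside LSM8, at -0.32 ± 0.19, SWI4 beside LSM4, at 0.34 ± 0.16, and MTC1 beside LSM1, at -0.13 ± 0.11. The first 3 had the sign of their LSM gene, and SWI4 and MTC1 had the opposite sign. The errors given for these 5 are those of the fit without the block, not of the blocked fit that picked them. The limma adjusted p without the block was 0.999 for each.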
